A study of Mus musculus with 9 samples.

Results

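Transcript levels of 8 genes of the MS4A family were followed in whole mouse lung after 2 forms of Aspergillus fumigatus had been instilled. The genes were Ms4a4a, Ms4a4b, Ms4a4c, Ms4a4d, Ms4a6b, Ms4a6c, Ms4a6d and Ms4a7. They were taken by gene symbol from 18984 listed genes, and each symbol matched 1 row in every library. They were chosen by their FPKM differences between the groups, which were already known. These differences, with their limma intervals and calls, are therefore given below as a description and are not to be read as tests. All mice were of the strain C57BL/6 and the source was lung tissue. Controls received normal saline, another group received conidia (spores, the form that is breathed in) and the last group received hyphal fragments (the filamentous, tissue-invading form), each by the intratracheal route. Lungs were taken 24 hours later. Each group held 3 libraries, 9 together. The labels give neither the age of the mice nor whether each library is a different animal. The p-values given for other genes therefore cover the spread among these libraries only, and that spread may be technical.

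MS4A genes encode small proteins that cross the membrane 4 times, and many of them sit in leukocyte membranes beside larger receptors and adjust their signalling. The best known are MS4A1, the B cell antigen CD20, and MS4A2, the beta chain of the high-affinity IgE receptor of mast cells. Among the genes described here, MS4A4A is a macrophage protein that associates with the beta-glucan receptor dectin-1, and Ms4a6d is a macrophage protein that works with Vsig4 to restrain the NLRP3 inflammasome. Ms4a4b is a T cell protein that associates with the costimulatory receptor GITR, and Ms4a6b is likewise found in T cells as well as in myeloid cells. Ms4a4c and Ms4a6c are abundant in inflammatory monocytes, and Ms4a7 in tissue macrophages. A label of myeloid proteins for the whole set thus does not cover Ms4a4b, and no cell type is given here for Ms4a4d.

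The 8 genes lie in 1 run of 13 genes on chromosome 19, in the order Ms4a7, Ms4a4a, Ms4a4c, Ms4a4b, Ms4a6c, Ms4a6b, Ms4a4d and Ms4a6d, with pseudogenes and uncharacterised genes between some of them. The neighbours Ms4a4b and Ms4a4c, and Ms4a6b and Ms4a6c, are close copies, though not the only alike pairs. In the GENCODE mouse annotation, the longest coding transcripts of Ms4a4b and Ms4a4c were identical at 81.7% of 1827 columns of a local alignment, which leaves out unlike ends. Those of Ms4a6b and Ms4a6c were identical at 73.5% of 1876. Over shorter stretches Ms4a6d was alike to Ms4a6c (78.1% of 959) and Ms4a6b (71.7% of 1466). Ms4a4d was alike to Ms4a4c (76.5% of 1223) and Ms4a4b (76.5% of 1200). For Ms4a4b with Ms4a4c and Ms4a6b with Ms4a6c the likeness reached into the promoters, as seen in the 250 bases before each gene's start in RefSeq (GRCm38.p6). Ms4a4b (chr19:11443308-11443557, + strand) and Ms4a4c (chr19:11407411-11407660, + strand) shared 183 bases. Ms4a6b (chr19:11518309-11518558, + strand) and Ms4a6c (chr19:11469118-11469367, + strand) shared 149. Ms4a6d had no promoter window, so its pairs could not be compared, and for Ms4a7 only the first window was used. The other 19 pairs of promoters that were compared shared 1 to 47 bases, within 1 to 76 aligned bases. Gaps at the window ends cost nothing, so these low numbers are not identities over 250 bases. These 4 windows are shown because each pair consists of close copies whose levels can be set side by side in the same libraries. Capitals mark the bases identical to the partner in a global alignment with free gaps at the ends.
Ms4a4b: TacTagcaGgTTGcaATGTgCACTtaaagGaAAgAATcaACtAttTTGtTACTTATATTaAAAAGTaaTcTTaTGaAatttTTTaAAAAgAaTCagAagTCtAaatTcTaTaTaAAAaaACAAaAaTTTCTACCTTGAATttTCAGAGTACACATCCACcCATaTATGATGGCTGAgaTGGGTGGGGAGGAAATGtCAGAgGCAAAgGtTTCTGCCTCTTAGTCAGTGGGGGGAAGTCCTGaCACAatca
Ms4a4c: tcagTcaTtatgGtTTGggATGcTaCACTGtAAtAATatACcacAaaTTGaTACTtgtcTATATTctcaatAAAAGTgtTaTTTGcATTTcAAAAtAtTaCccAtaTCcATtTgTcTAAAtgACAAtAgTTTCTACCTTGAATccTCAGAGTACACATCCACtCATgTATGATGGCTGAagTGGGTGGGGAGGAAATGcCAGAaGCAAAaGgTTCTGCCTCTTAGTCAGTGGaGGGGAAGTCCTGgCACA
Ms4a6b: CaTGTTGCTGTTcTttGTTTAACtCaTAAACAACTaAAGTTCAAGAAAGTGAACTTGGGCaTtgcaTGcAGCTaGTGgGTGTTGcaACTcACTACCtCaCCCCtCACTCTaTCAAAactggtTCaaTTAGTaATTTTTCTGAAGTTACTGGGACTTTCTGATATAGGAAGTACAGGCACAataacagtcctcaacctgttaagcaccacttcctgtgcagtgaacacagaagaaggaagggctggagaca
Ms4a6c: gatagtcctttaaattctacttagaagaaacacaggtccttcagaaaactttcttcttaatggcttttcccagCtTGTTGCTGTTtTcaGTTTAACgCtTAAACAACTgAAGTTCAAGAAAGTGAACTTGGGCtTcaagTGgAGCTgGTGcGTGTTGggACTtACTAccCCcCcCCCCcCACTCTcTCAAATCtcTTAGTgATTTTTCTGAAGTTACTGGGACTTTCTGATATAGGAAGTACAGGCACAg
In the Ms4a4 pair the identical bases were densest in the part nearest to the start. In the Ms4a6 pair the last stretch of the Ms4a6c window matched the middle of the Ms4a6b window.

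The promoters of Ms4a4a (chr19:11375238-11375487, + strand) and Ms4a4d (chr19:11536544-11536793, + strand) are shown because Ms4a4a stood high after conidia and Ms4a4d was the one gene that stood above control after hyphae in every library. Capitals mark matches to the motifs searched.
Ms4a4a: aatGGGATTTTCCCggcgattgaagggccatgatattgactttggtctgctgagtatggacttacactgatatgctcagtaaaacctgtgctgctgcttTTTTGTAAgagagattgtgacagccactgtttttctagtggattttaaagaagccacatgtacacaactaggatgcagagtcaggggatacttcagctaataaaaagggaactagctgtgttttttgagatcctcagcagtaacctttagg
Ms4a4d: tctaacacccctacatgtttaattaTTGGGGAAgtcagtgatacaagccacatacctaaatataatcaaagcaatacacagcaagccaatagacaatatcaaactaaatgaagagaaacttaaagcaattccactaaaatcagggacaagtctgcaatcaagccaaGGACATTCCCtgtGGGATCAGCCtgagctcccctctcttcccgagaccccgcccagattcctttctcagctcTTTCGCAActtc
Both strands were searched for 5 motifs in 32851 RefSeq promoter windows of 250 bases. They were GAGGAAGT (PU.1), the core of the interferon-stimulated response element (GAAA, any 2 bases, GAAA), STAT (TT, any base, C, any 3 bases, GAA), TTNNGNAA (C/EBP) and NF-kB (GGG, any 5 bases, CC). There were 8 windows for 7 of the genes, since Ms4a7 had 2, and Ms4a6d was not in the table. A match to TTNNGNAA was in all 8 windows and in 36.8% of all windows. A match to the NF-kB motif was in 5 windows (Ms4a4a, Ms4a4b, Ms4a4c, Ms4a4d and Ms4a6c) and in 45.8% of all. The STAT motif was found in 1 window, of Ms4a7, and in 11.2% of all. No match was found to GAGGAAGT or the interferon-stimulated core, which were in 2.44 and 2.98% of all windows. In Ms4a4a the NF-kB matches lay 247 to 237 bases before the start, on both strands and overlapping, and in Ms4a4d at 84 to 75 and 71 to 62 bases. These matches are descriptions of letters and do not show binding.

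Levels are given in FPKM, fragment numbers divided by transcript length and library size, so that genes can be compared with each other per length. Summed FPKM per library ran from 492540 to 561250. The files hold no counts. From the spacing of low values, and taking full transcript lengths, each library held about 17500000 to 18400000 fragments. At that depth Ms4a7 rested on about 15 to 74 fragments per library, Ms4a4c on 17 to 306, Ms4a4a on 23 to 202 and Ms4a4d on 608 to 1226. The median over all genes ranged from 5.88 to 6.32 FPKM in control, from 5.21 to 6.05 after conidia and from 3.60 to 4.05 after hyphae. Differences involving hyphae are therefore also given after rescaling each library by its median-of-ratios factor, which sets the median gene near 0. Differences are on the scale of log2(FPKM + 1), which understates changes of low values. Conidia replicate 2 stood apart from the other conidia libraries in its lymphocyte markers, and values are given with and without it where it matters. The libraries hold RNA of all lung cells, so fewer cells of a type and less RNA per cell cannot be told apart.

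After conidia, Ms4a6d and Ms4a4a, both genes of macrophages, stood above control in every library. Ms4a6d (Entrez 68774) measured 4.47, 3.55 and 3.05 FPKM in control replicates 1, 2 and 3, 15.60, 11.73 and 18.39 after conidia, and 2.69, 3.74 and 2.81 after hyphae. The conidia libraries did not overlap with either other group, and control and hyphae libraries overlapped. The mean was 3.69 ± 0.72 FPKM in control, 15.2 ± 3.34 after conidia and 3.08 ± 0.575 after hyphae (SD, n = 3 each), so that the conidia mean was 4.13-fold the control mean. On the log2 scale conidia stood 1.78 above control (SE 0.18, 95% interval 1.37 to 2.20). Hyphae stood at −0.20 against control (SE 0.18, rescaled 0.14) and at −1.98 against conidia (rescaled −1.71). Ms4a6d showed the largest difference between conidia and control among the 8 genes.

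Ms4a4a (Entrez 666907) was low in control and high after conidia. It measured 1.60, 4.14 and 1.57 FPKM in control replicates 1, 2 and 3, 8.07, 6.35 and 13.50 after conidia, and 2.46, 3.12 and 1.95 after hyphae. All conidia libraries lay above all others, while control replicate 2 was the highest of the remaining 6. The means were 2.44 ± 1.48, 9.31 ± 3.73 and 2.51 ± 0.587 FPKM (SD, n = 3 each). The difference between conidia and control was 1.60 (SE 0.32, 95% interval 0.87 to 2.34), a 3.82-fold ratio of means. Between hyphae and control it was 0.10 (95% interval −0.64 to 0.83, rescaled 0.40), and between hyphae and conidia −1.51 (rescaled −1.25). Ms4a4a and Ms4a6d were thus alike in being high after conidia and near the control level after hyphae.

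**Figure D1:**
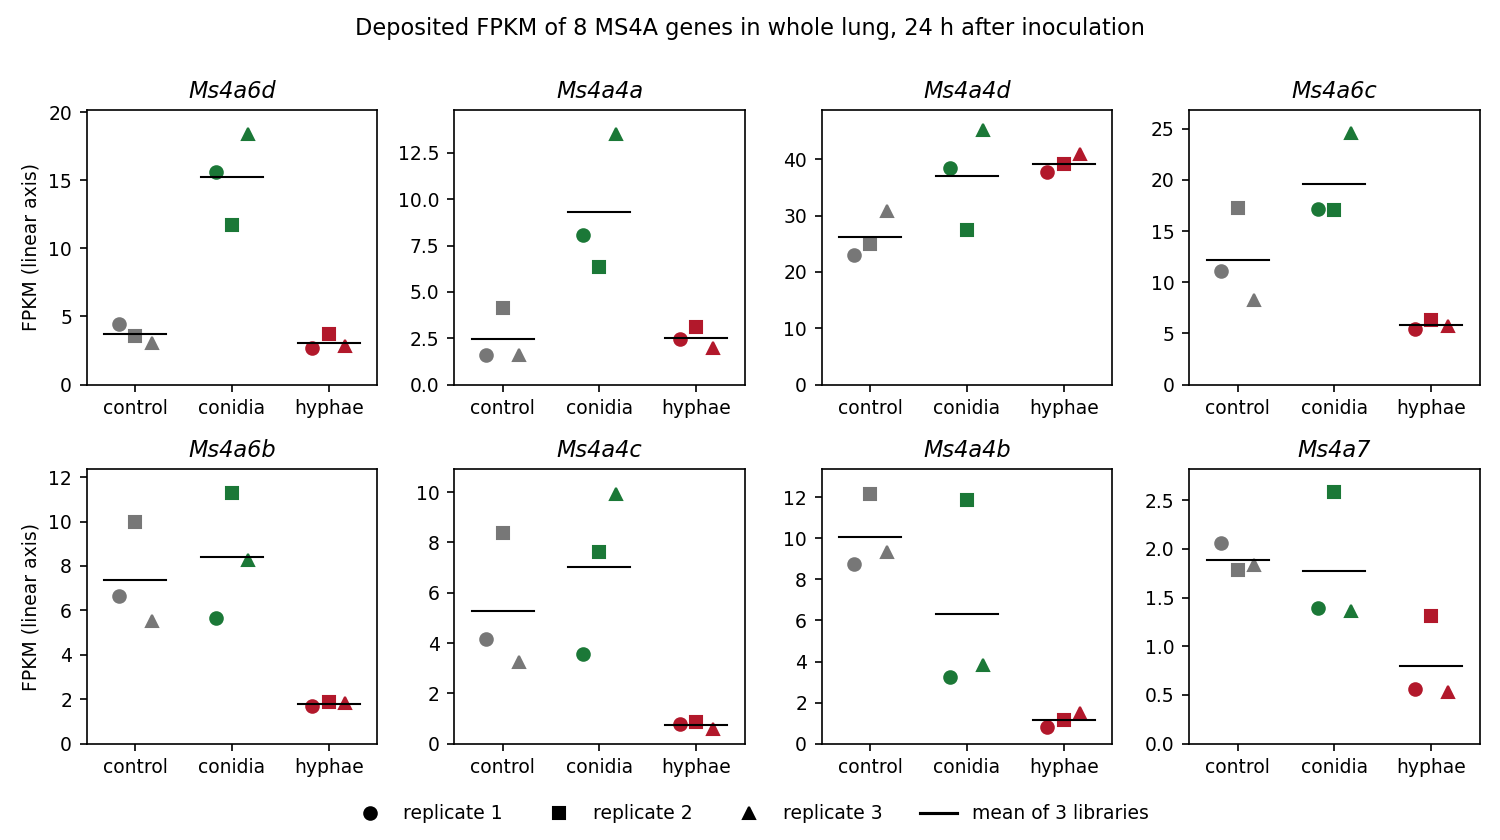
Deposited FPKM of the 8 MS4A genes in each library (linear axes from 0, a different range in each panel), by group, with symbols for the replicate number and a bar for the mean of 3 libraries. Ms4a6d and Ms4a4a stand highest in the 3 conidia libraries, Ms4a6b, Ms4a4c and Ms4a4b lie lowest in the 3 hyphae libraries, and Ms4a4d lies higher after hyphae than in control.

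Another pattern, kept or slightly higher after conidia and low after hyphae, was seen in Ms4a6c, Ms4a6b and Ms4a4c. Ms4a6c (Entrez 73656), a gene of inflammatory monocytes, measured 11.14, 17.21 and 8.31 FPKM in control replicates 1, 2 and 3, 17.18, 17.03 and 24.57 after conidia, and 5.39, 6.30 and 5.77 after hyphae. Conidia libraries overlapped with control only through control replicate 2, and all hyphae libraries lay below all others. The means were 12.2 ± 4.55, 19.6 ± 4.31 and 5.82 ± 0.457 FPKM (SD, n = 3 each). The difference was 0.68 between conidia and control (SE 0.23) and −0.90 between hyphae and control (SE 0.23, rescaled −0.52 with a 95% interval of −1.06 to 0.02). Between hyphae and conidia it was −1.58 (rescaled −1.28).

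Ms4a6b (Entrez 69774) and Ms4a6c, its close copy with the alike promoter, were both low after hyphae. Ms4a6b measured 6.63, 9.98 and 5.53 FPKM in control replicates 1, 2 and 3, 5.66, 11.28 and 8.28 after conidia, and 1.68, 1.89 and 1.82 after hyphae. Control and conidia libraries overlapped, and hyphae libraries lay in a narrow range below both. The means were 7.38 ± 2.32, 8.41 ± 2.81 and 1.80 ± 0.107 FPKM (SD, n = 3 each). The control mean was 4.11-fold the hyphae mean for Ms4a6b and 2.10-fold for Ms4a6c, and the difference between these ratios was not tested. For Ms4a6b the difference was 0.16 between conidia and control (95% interval −0.39 to 0.71), −1.55 between hyphae and control (SE 0.24, rescaled −1.22) and −1.71 between hyphae and conidia (rescaled −1.46).

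Ms4a4c (Entrez 64380), another monocyte gene, went furthest down from conidia to hyphae. It measured 4.17, 8.38 and 3.25 FPKM in control replicates 1, 2 and 3, 3.55, 7.62 and 9.92 after conidia, and 0.79, 0.86 and 0.57 after hyphae. Control and conidia overlapped throughout, and every hyphae library was below 1 FPKM, so that the gene passed the filter on low values through the other groups. The means were 5.27 ± 2.74, 7.03 ± 3.23 and 0.74 ± 0.151 FPKM (SD, n = 3 each), and the conidia mean was 9.50-fold the hyphae mean. The difference was 0.35 between conidia and control (95% interval −0.46 to 1.17), −1.77 between hyphae and control (SE 0.36, rescaled −1.51) and −2.12 between hyphae and conidia (rescaled −1.93). The last was the largest of the 8 differences between hyphae and conidia.

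Ms4a4b (Entrez 60361), the T cell gene, stood lower than in control after hyphae and in conidia replicates 1 and 3. It measured 8.76, 12.15 and 9.35 FPKM in control replicates 1, 2 and 3, 3.23, 11.87 and 3.85 after conidia, and 0.79, 1.15 and 1.5 after hyphae. Conidia replicate 2 lay within the control range, conidia replicates 1 and 3 lay below it, and all hyphae libraries lay below all others. The means were 10.1 ± 1.81, 6.32 ± 4.82 and 1.15 ± 0.355 FPKM (SD, n = 3 each), and the control mean was 8.80-fold the hyphae mean. The difference between conidia and control was −0.78 (SE 0.37, 95% interval −1.63 to 0.07), and −1.28 without conidia replicate 2. It was −2.37 between hyphae and control (SE 0.37, rescaled −2.06), the largest of the 8, and −1.59 between hyphae and conidia (rescaled −1.38). Its copy Ms4a4c was not lower in conidia replicate 3, where it reached its highest level.

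Ms4a7 (Entrez 109225), a gene of tissue macrophages, had the lowest mean of the 8 in control. It measured 2.06, 1.78 and 1.83 FPKM in control replicates 1, 2 and 3, 1.39, 2.58 and 1.36 after conidia, and 0.56, 1.31 and 0.53 after hyphae. Hyphae libraries lay below all others, though hyphae replicate 2 came close to conidia replicate 3. The means were 1.89 ± 0.149, 1.78 ± 0.696 and 0.80 ± 0.442 FPKM (SD, n = 3 each). The difference was −0.08 between conidia and control (95% interval −0.56 to 0.39) and −0.71 between hyphae and control (SE 0.21, rescaled −0.48). Between hyphae and conidia it was −0.62 (rescaled −0.45, 95% interval −0.93 to 0.02).

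Ms4a4d (Entrez 66607) had the highest level in every library and did not go down after hyphae. It measured 22.95, 24.92 and 30.77 FPKM in control replicates 1, 2 and 3, 38.41, 27.43 and 45.28 after conidia, and 37.73, 39.15 and 40.90 after hyphae. Conidia replicate 2 lay within the control range, and every hyphae library lay above every control. The means were 26.2 ± 4.07, 37.0 ± 9.0 and 39.3 ± 1.59 FPKM (SD, n = 3 each). The difference was 0.46 between conidia and control (SE 0.18), 0.57 between hyphae and control (SE 0.18, rescaled 0.99) and 0.11 between hyphae and conidia (95% interval −0.29 to 0.51, rescaled 0.44). In conidia replicate 2 the level of Ms4a4d was near control, as was that of Ms4a4b, while Ms4a6d and Ms4a4a were high there.

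**Figure D2:**
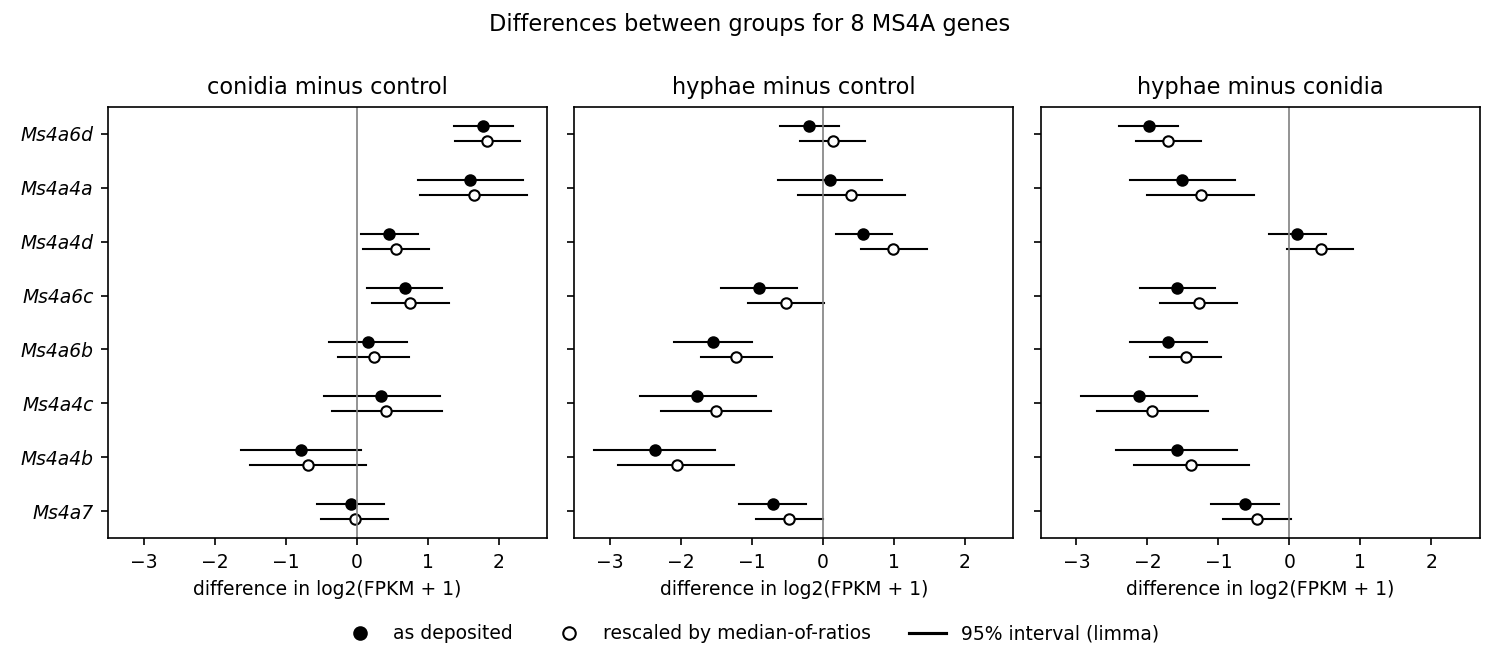
Differences in log2(FPKM + 1) for the 8 MS4A genes in the 3 comparisons (x axis, log2 units), with 95% intervals from limma, as deposited (filled) and after median-of-ratios rescaling (open). Ms4a6d lies at 1.78 for conidia minus control, Ms4a4b at −2.37 for hyphae minus control, and all genes except Ms4a4d lie below 0 for hyphae minus conidia on both scales.

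The 8 genes were picked with these comparisons known, so the counts below are printed beside those of all genes and nothing is drawn from them. All 8 passed the filter of at least 1 FPKM in at least 3 libraries. With a call set at a limma adjusted p under 0.05, 1 of 8 was called between conidia and control (Ms4a6d, higher) beside 0.690% of 13761 tested genes (0.596% higher, 0.0945% lower). The call of Ms4a6d was absent without control replicate 1, 2 or 3 or conidia replicate 1 or 3, and 4 genes of the 8 were called without conidia replicate 2. After rescaling the 1 called was again Ms4a6d, beside 0.342% (0.298% higher, 0.0436% lower). All 3 conidia libraries lay above all controls for 2 of 8, beside 12.0% of tested genes, and below them for 0 of 8, beside 17.8%. Between hyphae and control 6 of 8 were called (Ms4a4d higher, Ms4a4b, Ms4a4c, Ms4a6b, Ms4a6c and Ms4a7 lower) beside 64.9% of tested genes (14.9% higher, 50.0% lower). After rescaling 4 were called, Ms4a6c and Ms4a7 being lost, beside 59.3% (30.0% higher, 29.3% lower). Between hyphae and conidia 7 of 8 were called, all lower, beside 55.2% (12.7% higher, 42.5% lower). After rescaling 6 were called, without Ms4a7, beside 50.8% (25.4% higher, 25.4% lower). All hyphae libraries lay below all controls for 5 of 8, beside 53.4% of tested genes, and above them for 1, beside 17.3%. They lay below all conidia libraries for 7 of 8, beside 45.1%, and above them for 0, beside 14.8%.

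The median difference of the 8 genes was 0.41 between conidia and control, where the median of all tested genes was −0.07. It was −0.81 between hyphae and control, where all genes had −0.37, and −1.58 between hyphae and conidia, where all genes had −0.29. After rescaling the medians of the 8 were 0.49, −0.50 and −1.33. The comparisons share their libraries, so the values for hyphae against control and hyphae against conidia are not independent of each other or of the first.

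In control lungs the order of mean levels was Ms4a4d, Ms4a6c, Ms4a4b, Ms4a6b, Ms4a4c, Ms4a6d, Ms4a4a and Ms4a7. Only Ms4a4d was separated in all 3 libraries from the next gene, and all other neighbours overlapped. After conidia the order was Ms4a4d, Ms4a6c, Ms4a6d, Ms4a4a, Ms4a6b, Ms4a4c, Ms4a4b and Ms4a7, and the libraries of neighbours overlapped except between Ms4a4d and Ms4a6c and between Ms4a4b and Ms4a7. After hyphae it was Ms4a4d, Ms4a6c, Ms4a6d, Ms4a4a, Ms4a6b, Ms4a4b, Ms4a7 and Ms4a4c. There the steps from Ms4a4d to Ms4a6c, from Ms4a4a to Ms4a6b and from Ms4a6b to Ms4a4b were separated, as was that from Ms4a6c to Ms4a6d. Ms4a4b thus went from the third place to the sixth, and Ms4a6d from the sixth to the third.

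The summed level of the 8 genes was 69.2 ± 11.2 FPKM in control, 105 ± 17.7 after conidia and 55.2 ± 2.77 after hyphae (SD, n = 3 each). As deposited, the conidia libraries lay above all controls and the hyphae libraries below them. The median-of-ratios factors were 1.12 to 1.16 in control and 0.811 to 0.9 after hyphae. Dividing by them lowers the control sums and raises the hyphae sums, so the order of hyphae and control holds for the deposited scale only. Ms4a4d gave 30.3 to 48.3% of the sum in control, 28.6 to 41.3% after conidia and 68.1 to 73.2% after hyphae. Ms4a4b gave 14.2 to 14.8% in control, 3.08 to 12.4% after conidia and 1.52 to 2.69% after hyphae, and these ranges did not overlap. Ms4a6d gave 4.32 to 7.24% in control, 12.2 to 16.8% after conidia and 5.03 to 6.50% after hyphae. Shares within a library do not depend on scaling between libraries, but a share also moves when another gene of the sum moves.

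**Figure D3:**
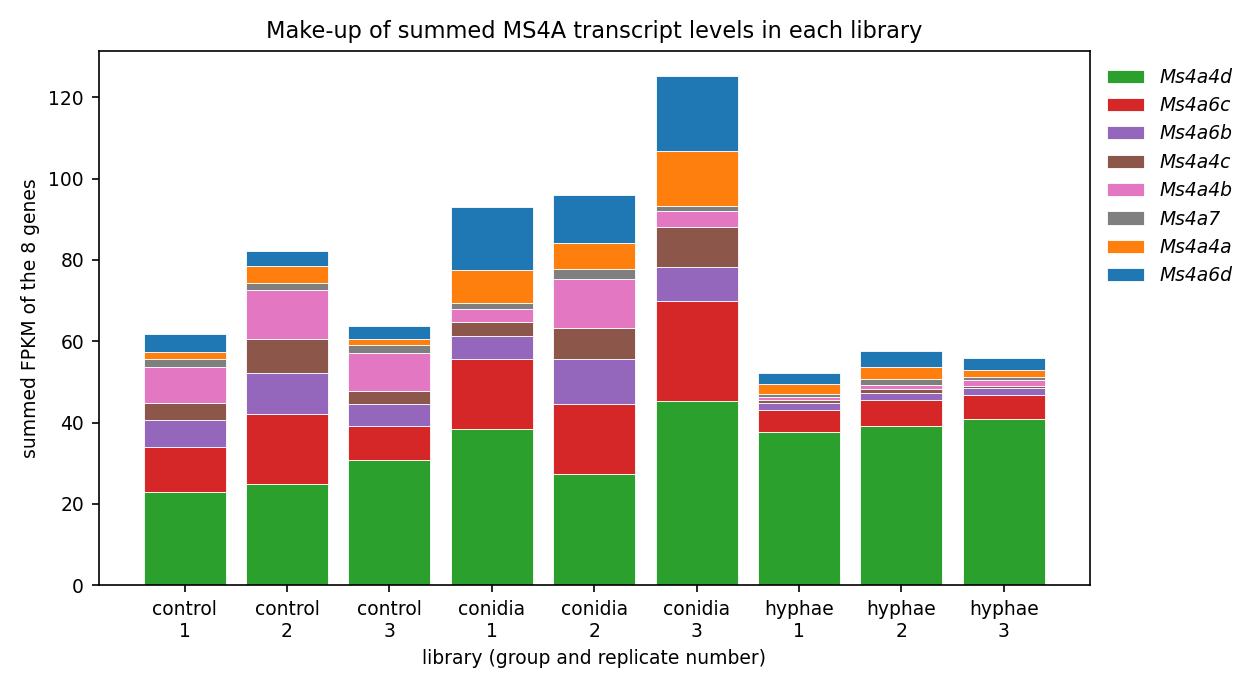
Stacked FPKM of the 8 MS4A genes in each of the 9 libraries (y axis, summed FPKM from 0; x axis, group and replicate number). Ms4a4d makes up 68.1 to 73.2% of the sum after hyphae, and the part of Ms4a6d is widest in the 3 conidia libraries, at 12.2 to 16.8%.

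The rest of the family was described from a list of 14 genes, of which 7 were analysed here and 4 passed the filter. Ms4a1, the B cell antigen CD20, measured 11.50, 10.82 and 5.69 FPKM in control replicates 1, 2 and 3, 1.95, 9.72 and 1.88 after conidia, and 0.28, 0.64 and 0.58 after hyphae. As with Ms4a4b, conidia replicate 2 was at the control level and the other conidia libraries were below it. Every hyphae library was below 1 FPKM, so that Ms4a1 passed the filter through the other groups. Ms4a1 fell by 2.74 between control and hyphae (SE 0.48, limma adjusted p = 0.00117, rescaled −2.48 with adjusted p = 0.00184) and was lower after hyphae than after conidia (−1.59, limma adjusted p = 0.0204). Between conidia and control the difference was −1.15 (limma adjusted p = 0.218), and −1.77 without conidia replicate 2 (limma adjusted p = 0.00736). Without hyphae replicate 1 the difference between hyphae and conidia did not pass (−1.48, limma adjusted p = 0.0514).

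Ms4a8a, reported in alternatively activated macrophages, was likewise high after conidia. It measured 5.22, 3.88 and 4.71 FPKM in control replicates 1, 2 and 3, 12.90, 7.69 and 16.51 after conidia, and 4.47, 3.55 and 2.19 after hyphae. The conidia libraries lay above all others. Its difference between conidia and control was 1.20 and did not pass (SE 0.27, limma adjusted p = 0.0792), but passed without conidia replicate 2 (1.48, limma adjusted p = 0.00857). The difference between hyphae and conidia was −1.58 and passed (limma adjusted p = 0.00147, rescaled −1.31 with adjusted p = 0.00531).

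Tmem176a and Tmem176b, MS4A-related genes of dendritic cells and macrophages, were far more abundant. Tmem176a measured 255.74, 211.36 and 237.01 FPKM in control replicates 1, 2 and 3, 416.02, 306.98 and 317.06 after conidia, and 201.09, 148.02 and 115.79 after hyphae. Tmem176b measured 445.53, 348.93 and 384.50, then 680.75, 496.54 and 686.20, and then 346.42, 240.46 and 218.90 FPKM in the same order. In both genes the 3 groups were separate, with conidia highest and hyphae lowest. Both were lower after hyphae than after conidia, Tmem176a at −1.18 (limma adjusted p = 0.00131, rescaled −0.85) and Tmem176b at −1.22 (limma adjusted p = 0.00103, rescaled −0.89). Against control they were also lower after hyphae (−0.63 and −0.57), but not after rescaling (−0.20 with limma adjusted p = 0.421 and −0.14 with 0.566). As deposited, both of these calls were also lost without control replicate 1 or 3 or hyphae replicate 2 or 3 (limma adjusted p = 0.0537 to 0.104). Between conidia and control neither passed (0.55 and 0.65, limma adjusted p = 0.172 and 0.129), though Tmem176b did without conidia replicate 2 (0.80, limma adjusted p = 0.0374). All 4 tested relatives were thus lower after hyphae than after conidia on both scales, with a median of −1.40 beside −0.29 for all genes. Of all tested genes 42.5% were called lower there (25.4% rescaled). Ms4a2, Ms4a14 and Ms4a15 were below the filter, with at most 0.24, 0.62 and 0.58 FPKM in any library.

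Genes of proteins reported to act with MS4A proteins made up a list of 13, of which 11 were tested. None passed between conidia and control. Between hyphae and control 1 was higher and 2 were lower (5 and 2 rescaled), beside 14.9% and 50.0% of all tested genes (30.0% and 29.3% rescaled). With conidia replicate 2 or hyphae replicate 1 left out, 2 passed between conidia and control, and without hyphae replicate 1 the number called between hyphae and control was 7. Clec7a, the dectin-1 partner of MS4A4A, measured 9.50, 13.59 and 13.30 FPKM in control replicates 1, 2 and 3, 26.80, 30.59 and 15.47 after conidia, and 3.65, 11.51 and 14.55 after hyphae. All conidia libraries lay above all others, but replicate 3 only narrowly. The difference between conidia and control did not pass (0.91, limma adjusted p = 0.26), and that between hyphae and conidia passed as deposited (−1.33, limma adjusted p = 0.0267) but not after rescaling (−1.03, adjusted p = 0.0942) or without conidia replicate 1 or 2 (limma adjusted p = 0.0709 and 0.0881). Trem2, a lipid receptor of macrophages whose shed form is regulated by MS4A genes, was lower after hyphae than after conidia (−1.20, limma adjusted p = 0.00588, rescaled −0.95 with adjusted p = 0.0252).

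Tnfrsf18, which encodes GITR, the partner of Ms4a4b, was lower after hyphae. It measured 4.63, 4.85 and 4.17 FPKM in control replicates 1, 2 and 3, 3.33, 4.97 and 3.91 after conidia, and 1.29, 1.29 and 1.26 after hyphae. Control and conidia libraries overlapped, and the hyphae libraries lay below all of them. It fell by 1.28 between control and hyphae (SE 0.13, limma adjusted p = 9.43e-05, rescaled −0.99). Fcgr1, the high-affinity IgG receptor, was also lower after hyphae (−1.01, limma adjusted p = 0.00096, rescaled −0.84), whereas the tetraspanin Cd9 was higher (0.47, limma adjusted p = 0.00274, rescaled 0.90). The hyphae libraries of Fcgr1 stood at 0.16 to 0.34 FPKM, so that it passed the filter through the other groups. Between hyphae and conidia the list had a median of −0.53. There 1 of the 11 was higher and 4 were lower (2 and 3 rescaled), beside 12.7% and 42.5% of all tested genes (25.4% and 25.4% rescaled). These 5 calls became 3 without conidia replicate 2 and 8 without hyphae replicate 3. The higher gene was Cd9 (0.27), whose call was lost without control replicate 1, 2 or 3, conidia replicate 2 or hyphae replicate 1 or 2 (limma adjusted p = 0.0508 to 0.115). Nlrp3, the inflammasome sensor linked to Ms4a6d, measured 0.83, 1.31 and 1.04 FPKM in control, 16.03, 3.44 and 6.62 after conidia and 1.17, 5.66 and 12.28 after hyphae, and passed in no comparison (limma adjusted p = 0.141, 0.07 and 0.516). Without hyphae replicate 1 Nlrp3 passed between hyphae and control (2.20, limma adjusted p = 0.00644). Vsig4 and Fcer1a were below the filter. Vsig4 stood at 5.59 FPKM in control replicate 1 and at most at 0.61 in the other 8 libraries.

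Several of the 8 genes are known to respond to interferon in myeloid cells, so interferon-response genes were set beside them. Of 24 type I interferon response genes 22 were tested. Between conidia and control 1 was higher, Zbp1, which senses Z-form nucleic acids (1.35, limma adjusted p = 0.0244), beside 0.596% of all tested genes, with a list median of 0.46. After hyphae against control 3 were higher and 12 lower, beside 14.9% and 50.0% of all tested genes. After rescaling 4 were higher and 5 lower, beside 30.0% and 29.3%. The list median there was −0.45 (rescaled −0.05). The largest rise was that of Oasl1 (1.45, limma adjusted p = 0.00366). Between hyphae and conidia 16 were lower and none higher (12 and 2 rescaled), with a median of −0.96 (rescaled −0.70). Of all tested genes 42.5% were lower and 12.7% higher there (25.4% and 25.4% rescaled). Irf7, a driver of interferon production, was higher in every conidia library than in every control without passing (0.74, limma adjusted p = 0.0962). The same order of libraries was seen in 12.0% of all tested genes. After hyphae Irf7 was lower than in control (−0.89, limma adjusted p = 0.00327), but did not pass after rescaling (−0.50, adjusted p = 0.059). It was also lower after hyphae than after conidia (−1.64, limma adjusted p = 0.000223, rescaled −1.33). Of 19 interferon-gamma response genes 1 was higher between conidia and control (Tgtp1, a GTPase, 1.88, limma adjusted p = 0.0244). For hyphae against control 3 were higher and 8 lower (5 and 4 rescaled), from Cxcl10 (3.64, limma adjusted p = 0.000407) to Irgm2 (−1.91, limma adjusted p = 2.06e-05). Zbp1 and Tgtp1 lost their calls in each fit that left out 1 control library, conidia replicate 1 or conidia replicate 3, and without hyphae replicate 1 the number of called type I genes was 5. Without conidia replicate 2 it was 3 in both lists, and without hyphae replicate 1 or 3 it was 2 in the interferon-gamma list.

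Marker lists of leukocytes were set beside the family, and their part in the results was not tested. Of all tested genes 14.9% were called higher and 50.0% lower between hyphae and control (30.0% and 29.3% rescaled). Between conidia and control these shares were 0.596% and 0.0945%, and the counts below are to be read beside them. All 8 markers of lung epithelium and endothelium were found in the libraries. Their sums were 87198 to 130533 FPKM in control, 59790 to 76265 after conidia and 54979 to 64114 after hyphae, with every control library above all others. Scgb1a1 is 1 of the 8 and led these sums, with means of 80266, 48799 and 31342 FPKM in control, after conidia and after hyphae. None of the 8 was called between conidia and control (1 without conidia replicate 2). After hyphae 3 were higher and 2 lower than in control (5 and 2 rescaled), from Cdh5 of endothelium (0.84) to Foxj1 of ciliated cells (−2.05, limma adjusted p = 0.00262). The 3 higher were Pecam1, Cdh5 and Cldn5, and the 2 lower were Scgb1a1 and Foxj1. Of 10 classical monocyte markers 1 was higher after conidia (F10, 2.01, limma adjusted p = 0.047, 0.0667 rescaled), a call kept only without conidia replicate 2 or hyphae replicate 1 among the fits with 1 library left out, where 5 and 2 of the markers were called. Between hyphae and control Cd14 (1.74, limma adjusted p = 0.028, lost without control replicate 2 or 3 or hyphae replicate 2 or 3) and Ly6c1 were higher and Ccr2, the receptor that brings monocytes to tissue, was lower, which became 5 higher and 1 lower after rescaling. Ccr2 measured 10.93, 17.31 and 9.14 FPKM in control replicates 1, 2 and 3, 12.17, 19.58 and 29.50 after conidia, and 1.01, 1.32 and 1.14 after hyphae. It overlapped between control and conidia and was low in all hyphae libraries, as Ms4a6c, Ms4a6b and Ms4a4c were. Ccr2 fell by 2.60 between control and hyphae (SE 0.30, limma adjusted p = 0.000171, rescaled −2.29). The list's summed level nevertheless stood at 396 to 492 FPKM in control, 732 to 1629 after conidia and 970 to 1041 after hyphae. Ly6c1, a surface protein that endothelium expresses too, is one of the 10 and had means of 216, 683 and 647 FPKM. Of 10 non-classical monocyte markers 5 were lower after hyphae than in control, beside 50.0% of all tested genes. Cx3cr1 was deepest (−2.34, limma adjusted p = 0.000144). It was below 1 FPKM in every hyphae library and passed the filter through the other groups. The summed level of these markers overlapped between the groups, at 344 to 892, 501 to 791 and 356 to 792 FPKM. Ace (means of 239, 369 and 263 FPKM) and Fabp4 (210, 167 and 166) weighed most in it. Of 14 markers of interstitial and recruited macrophages 1 was higher (Lyve1) and 5 were lower after hyphae than in control, but 2 higher and 1 lower after rescaling, and sums were 603 to 781, 670 to 753 and 768 to 988 FPKM. Alveolar macrophage markers summed to 278 to 399, 414 to 441 and 303 to 457 FPKM, with 2 of 12 tested lower after hyphae than in control (none lower and 3 higher rescaled, 1 called without control replicate 2 or 3 or hyphae replicate 3). Dendritic cell markers summed to 354 to 473, 351 to 402 and 212 to 331 FPKM, with 7 of 11 tested lower after hyphae than in control (3 rescaled, 3 without control replicate 1 and 4 without control replicate 2). Cd24a alone had means of 351, 339 and 235 FPKM. Mast cell and basophil markers (113 to 134, 147 to 185 and 137 to 177 FPKM) and eosinophil markers (1.36 to 2.60, 2.25 to 4.12 and 1.41 to 1.97 FPKM) had no marker called between conidia and control (1 in each list without conidia replicate 2). Hdc (means of 40.5, 58.3 and 61.2 FPKM), Gata2 (38.5, 69.6 and 83.3) and Kit (36.2, 33.6 and 13.8) weighed most in the mast cell and basophil sum.

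Summed lymphocyte markers, Ms4a4b and Ms4a1 were all lower after hyphae than in control and highest in conidia replicate 2 among the conidia libraries. They were less alike between hyphae and conidia, where Ms4a4b and Ms4a1 both stood at −1.59. There 1 of 13 tested T cell markers was higher and 2 were lower. Of 8 tested B cell markers 1 was lower, and of 8 tested NK cell markers none was called. Of all tested genes 12.7% were higher and 42.5% lower there. The summed level of 15 T cell markers was 78.8, 85.2 and 64.1 FPKM in control replicates 1, 2 and 3, 33.7, 85.0 and 30.7 after conidia, and 24.4, 33.8 and 38.2 after hyphae. Conidia replicate 2 was at the control level and the other conidia libraries lay within the hyphae range. Ms4a4b was split likewise among the conidia libraries, but its conidia replicates 1 and 3 (3.23 and 3.85 FPKM) lay above its hyphae libraries (0.79 to 1.5). None of 13 tested T cell markers passed between conidia and control (9 did without conidia replicate 2). In the hyphae libraries 9 were lower than in control and none higher (7 and 1 rescaled), beside 50.0% and 14.9% of all tested genes (29.3% and 30.0% rescaled). Il7r, the interleukin 7 receptor, was deepest (−1.87, limma adjusted p = 4.99e-05). Its hyphae libraries stood at 0.32 to 0.59 FPKM, so that it passed the filter through the other groups. B cell markers summed to 159, 175 and 97.1 FPKM in control, 48.1, 132 and 45.4 after conidia and 24.4, 48.6 and 63.9 after hyphae. NK cell markers summed to 45.0, 49.5 and 28.8, then 10.2, 55.3 and 11.8, and then 11.7, 22.1 and 25.5 FPKM. Neutrophil markers went the other way, from 135 to 157 FPKM in control to 868 to 3107 after conidia and 674 to 5978 after hyphae, and conidia replicate 2 was the lowest of its group. Of 11 tested neutrophil markers 3 were higher after conidia (S100a9, Mmp8 and Csf3r, limma adjusted p = 0.047, 0.047 and 0.0465, none after rescaling), and 9 after hyphae, beside 0.596% and 14.9% of all tested genes. With 1 library left out the 3 calls after conidia became 7 without conidia replicate 2 or hyphae replicate 3, 8 without hyphae replicate 1 and 0 without any 1 of the other libraries. No listed marker was at 0 in every library.

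**Figure D4:**
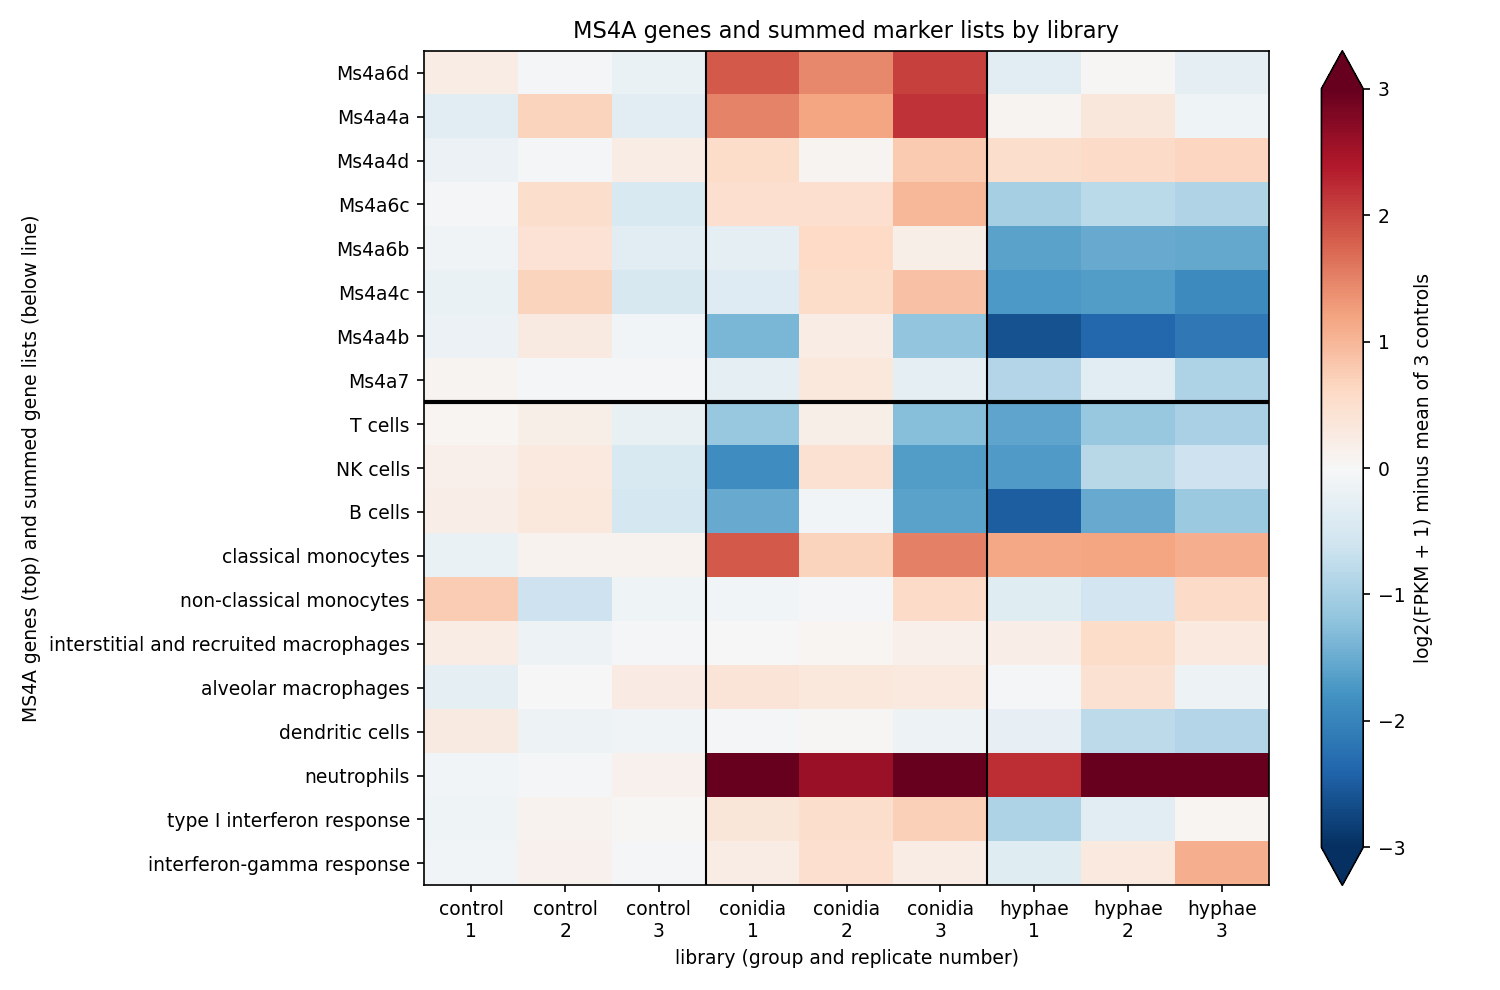
Log2(FPKM + 1) minus the mean of the 3 controls for the 8 MS4A genes (above the line) and for the summed FPKM of 11 gene lists (below it), by library (colour, log2 units, ends at −3 and 3). Conidia replicate 2 is near control for Ms4a4b and for T, NK and B cell markers, while Ms4a6d and Ms4a4a are above control in all 3 conidia libraries.

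For each of the 8 genes, the genes outside the family with the most similar levels were listed by Pearson's r of log2(FPKM + 1) over the 9 libraries. Since these libraries fall into 3 groups, r largely follows the group means, and it is a description with no test. The nearest to Ms4a6d were Prrt4 (r = 0.984) and Il18bp (0.974), the decoy of interleukin 18. Il18bp had means of 7.30 FPKM in control and 5.86 after hyphae, and stood at 10.7 to 15.7 after conidia. Nearest to Ms4a4a were Dcun1d1 and Ly6e (both 0.944), and Ly6e, an interferon-inducible surface protein, had means of 671, 937 and 628 FPKM. Ms4a4c and Ms4a6b had Tifab in common as the nearest gene (0.984 and 0.990), with means of 4.16, 5.20 and 0.213 FPKM. Next came Clec4a3 for Ms4a4c (0.984), a C-type lectin of myeloid cells, and Lyl1 for Ms4a6b (0.987), a blood-cell transcription factor. Ms4a6c was nearest to Klra2 (0.978) and Slc25a20 (0.972). Ms4a4b was nearest to Ciita (0.992), the activator of MHC class II genes, and Mgat1 (0.990). Ciita had means of 3.81 FPKM in control, 2.61 after conidia and 1.01 after hyphae. Ms4a4d was nearest to Atg9a (0.972) and Ino80c (0.955), and Ms4a7 to Stab1 (0.959), a scavenger receptor of macrophages and sinusoidal endothelium, and Fbxo42 (0.958).

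Because family members are copies, fragments may be shared between them. Of all 50-base windows in the longest coding transcript of the GENCODE annotation, 11.3% for Ms4a6c, 8.48% for Ms4a4c, 5.89% for Ms4a6b, 4.19% for Ms4a4b, 2.92% for Ms4a6d and 0.546% for Ms4a4d also occurred in a transcript of another gene. For Ms4a4a and Ms4a7 no such window was found. With 100-base windows the highest share was 1.72%, for Ms4a4c. The labels and headers do not say how the authors assigned fragments that match several genes, or whether strand was used. The levels of Ms4a4b, Ms4a4c, Ms4a6b and Ms4a6c carry this uncertainty.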

How the data were processed

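Poly(A) RNA of whole lung was sequenced in 9 libraries on a BGISEQ platform, per the labels' protocols. The authors deposited FPKM values with 2 decimals, 1 table per library, per the file headers. The submitters' processing notes name HISAT, Bowtie2 and mm9 with neither version nor role, and no source names the tool behind the FPKM values.

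Values were transformed to log2(FPKM + 1), and the 13761 genes that reached 1 FPKM in 3 or more of 9 libraries were fitted in 1 limma-trend model (R 4.3.3, limma 3.58.1, robust empirical Bayes) with a term per group. Two-sided p-values were Benjamini-Hochberg adjusted over these 13761 genes. The model was also run on simulated data, in which few genes were changed, in hyphae only, and libraries were not shifted against each other. These settings differ from the data described here, so that run does not check the calls given. A call is an adjusted p under 0.05. Named are the 8 genes, their relatives and partners, the extreme called genes of each list between hyphae and control, genes called between conidia and control, and the 2 nearest genes by Pearson's r. One gene that this rule names is not reported here. Irf7 and Ly6c1 were chosen after their values were seen. Members and lists were chosen with earlier results of these data known. Identities come from pairwise alignment of GENCODE transcripts and RefSeq promoters (Biopython 1.88). Alternatives were rescaling, pseudocount 0.1, filters, the groups compared alone, a non-robust fit, a replicate block and leaving out each library. Other MS4A genes of the list were not analysed here.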

Additional observations from a re-analysis of the deposited data

How the results depend on the processing

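Of 24 differences of the 8 genes (8 in each of 3 comparisons), 19 kept their sign under all alternatives run for them. The 5 that changed sign were those of Ms4a6b and Ms4a7 between conidia and control, Ms4a4a and Ms4a6d between hyphae and control and Ms4a4d between hyphae and conidia, each with a 95% interval that held 0. Between conidia and control the number of all genes called was 95, and it was 47 after median-of-ratios rescaling and 43 with no filter on low values. Leaving out 1 library gave 0 to 1503 genes and 0 to 4 of the 8. No gene was called when control replicate 1, 2 or 3 or conidia replicate 3 was dropped, though 1982, 1971, 2601 and 1862 genes kept an unadjusted limma p under 0.05. Dropping conidia replicate 1 left 1 gene, hyphae replicate 2 left 7 and hyphae replicate 1 left 260. Dropping conidia replicate 2 left 1503, and then Ms4a4a, Ms4a4b, Ms4a4d and Ms4a6d were called. Between hyphae and control 7619 to 8995 genes and 5 to 6 of the 8 were called with 1 library left out. Ms4a4d was lost without control replicate 1 or 2, and Ms4a7 without hyphae replicate 3. Between hyphae and conidia these ranges were 5890 to 7858 and 6 to 7, and Ms4a7 was lost without conidia replicate 2, hyphae replicate 1 or hyphae replicate 3. Rescaling moved the split of calls from 2045 higher and 6886 lower to 4132 and 4035 between hyphae and control, and from 1752 and 5847 to 3496 and 3492 between hyphae and conidia. It also turned the difference of Cd81 between hyphae and control from −0.08 to 0.35 and that of Ddx58 from −0.40 to 0. Where a library was left out, the cause was not tested.

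The replicate numbers are not said to pair the samples. Same-numbered samples had correlated deviations of −0.31 to 0.42 over 9 pairs, and 7 of 18 matched best with their own number. With the replicate number as a block, 57 genes were called between conidia and control. In that comparison the called neutrophil markers went from 3 to 0, classical monocyte markers from 1 to 0 and type I interferon genes from 1 to 2, and no other number of calls moved by over 1.5 times. Low values limit Ms4a7, Ms4a4c and Ms4a4a most.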
